A study of Mus musculus with 8 samples.

Results

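The transcripts of 10 circadian clock genes were followed in skeletal muscle of 8 male C57BL/6J mice aged 10 weeks. Casts held both hindlimbs immobile for 8 days, and throughout the mice received K14Q MOTS-c intraperitoneally at 15 mg/kg/day, divided over 2 injections per day. MOTS-c is a peptide encoded in mitochondrial DNA, and K14Q is a form of it with 1 amino acid exchanged. All 8 mice belong to this 1 group, so neither immobilization nor the peptide could be compared with a control, and the comparisons made were those between clock transcripts across mice. The labels give vastus lateralis as the tissue, whereas the study's methods name the whole gastrocnemius. The hour at which the muscle was taken is not given in the sources used here. The 10 genes were chosen by name (Arntl, Clock, Per1, Per2, Per3, Cry1, Cry2, Nr1d1, Nr1d2 and Dbp), and all 10 were found among the 55487 genes measured.

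The molecular clock is a loop of transcription and repression that runs in nearly every cell, muscle fibres included. ARNTL (also called BMAL1) and CLOCK form a dimer that binds E-box sequences and drives Per, Cry, Nr1d and Dbp genes. PER and CRY proteins return to repress the dimer, NR1D1 and NR1D2 (REV-ERBα and REV-ERBβ) repress Arntl through ROR response elements, and DBP drives genes with D-box sequences. In a running clock, Arntl therefore peaks at a time of day when Dbp and Nr1d1 are low, and in muscle the loop is known to set daily rhythms of glucose and fat use.

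Total counts ran from 23985356 to 33012497 per mouse with a median of 29419182.5, and each of the 10 transcripts had between 234 and 4109 counts in every mouse. The 10 most abundant genes of a library took between 18.8% of its counts in mouse 3 and 26.2% in mouse 1, with 19.6% in mouse 4 and 21.7% in mouse 5. Values are given as normalised read counts, which are counts divided by 1 size factor per mouse. Markers of fast and general muscle fibres were the most abundant of the marker lists, with a summed level of 1742649 to 3492839 normalised read counts over 8 genes against 6347 to 15004 for 5 slow fibre genes. No gene of the 9 marker lists was at 0 in any mouse, and these lists do not tell the muscles named in the labels and in the methods apart. In whole muscle, fewer cells of a type and less RNA per cell cannot be told apart.

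Sequence before the start of 4 clock genes is shown first, because 3 of them (Cry2, Per1 and Nr1d2) went with Dbp in the relations below and Per3 carried the only D-boxes. Clock also went with Dbp but is not shown. Of its windows only that of start 3 held a match, a half-site of a ROR element at -119. RefSeq windows on GRCm38.p6 were found for 9 of the 10 genes, in 13 windows of 300 bases, each from 250 bases before to 50 bases after an annotated start. Each line gives 220 bases that end 30 bases before the start, read on the gene's strand, with motif letters in capitals. Positions count from the start, with negative numbers before it, and name the first base of the motif.
Cry2 (chr2:92434100-92434319, minus strand, 1 E-prime box at -166 as AACGTG): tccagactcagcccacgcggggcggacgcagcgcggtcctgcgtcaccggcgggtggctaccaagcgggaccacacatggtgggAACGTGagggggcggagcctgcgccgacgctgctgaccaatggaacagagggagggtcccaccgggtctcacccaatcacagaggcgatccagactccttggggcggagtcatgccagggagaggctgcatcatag
Per1, first start (chr11:69098699-69098918, plus strand, E-box CACGTG at -166 and half-site of a ROR element at -137 as TGACCT): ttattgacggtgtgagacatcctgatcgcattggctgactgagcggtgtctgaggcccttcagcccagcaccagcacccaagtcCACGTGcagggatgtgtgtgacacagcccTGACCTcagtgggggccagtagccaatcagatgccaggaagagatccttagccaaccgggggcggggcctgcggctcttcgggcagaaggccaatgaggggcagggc
Nr1d2 (chr14:18239137-18239356, minus strand, half-site AGGTCA at -77): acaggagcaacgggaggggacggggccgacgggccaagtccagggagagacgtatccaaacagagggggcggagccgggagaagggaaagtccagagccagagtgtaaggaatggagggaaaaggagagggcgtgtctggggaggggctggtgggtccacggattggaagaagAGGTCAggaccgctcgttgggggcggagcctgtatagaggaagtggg
Per3 (chr4:151044696-151044915, minus strand, D-box TTATGTAA at -205 and -158): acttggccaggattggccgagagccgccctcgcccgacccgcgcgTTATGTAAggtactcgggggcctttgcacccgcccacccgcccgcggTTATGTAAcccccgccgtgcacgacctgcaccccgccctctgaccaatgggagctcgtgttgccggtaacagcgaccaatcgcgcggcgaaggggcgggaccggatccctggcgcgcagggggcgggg

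Motifs were searched on both strands as CACGTG (E-box), CACGTT (E-prime box), TTATGTAA (D-box) and AGGTCA (half-site of a ROR element), and no motif overlapped another in the clock gene windows. Since Clock, Arntl and Per1 have more than 1 window, counts are given per window. An E-box was found in 2 of the 13 windows (of Per1, and of Cry1 at -60), and 7.15% of all 32851 promoter windows hold at least 1. An E-prime box was found in 3 windows (of Cry2, Cry1 at -79 and Nr1d1 at -28), against 4.68% of all windows. The D-box was found in 1 window, that of Per3, in 2 copies, against 0.938% of all windows. A half-site was found in 4 windows (1 each of Arntl, Clock, Per1 and Nr1d2), against 16.3% of all windows. That of Arntl, the gene repressed by the REV-ERB proteins, lay at 32 after the second annotated start, within a stretch of 24 bases on the plus strand at chr7:113207530-113207553.
Arntl, half-site in capitals: aaggcagaaagtAGGTCAgggacg
These matches describe letters in the windows and say nothing of binding, and Dbp itself had no match to any of the 4 motifs in its 300-base window.

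The positive arm was carried by Arntl and Clock. Arntl (chr7:113207465-113314126, plus strand) was at 624 normalised read counts in the lowest mouse, 659 at the median and 1010 in the highest. Mice 4 and 8 stood above the others, at 1010 and 898, while the remaining 6 mice lay between 624 and 677. Clock (chr5:76209868-76304792, minus strand), the DNA-binding partner of Arntl, ran from 1111 through a median of 1414 to 2026. Its highest values were those of mice 4 and 5, and mouse 8, which was second for Arntl, was among the lower mice for Clock.

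Of the repressor arm, the 3 Per genes did not share a highest mouse. Per1 (chr11:69095217-69109960, plus strand) ran from 1608 in mouse 1 through a median of 2019 to 2528 in mouse 5. Per2 (chr1:91415982-91459324, minus strand) ran from 427 in mouse 8 through 552 to 673 in mouse 2, and Per3 (chr4:151003652-151044665, minus strand) from 712 in mouse 7 through 850 to 1039 in mouse 1. Mouse 1, lowest for Per1, was therefore highest for Per3.

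The cryptochromes, which repress the ARNTL and CLOCK dimer together with PER proteins, differed in how much they varied. Cry1 (chr10:85131700-85185064, minus strand) stayed between 224 and 298 with a median of 266. Cry2 (chr2:92403646-92434043, minus strand) measured 1635, 1654, 2974, 3235, 2991, 1867, 1827 and 2164 in mice 1 to 8. Mice 3, 4 and 5 were well above the other 5 for Cry2, with the widest step, of 810, between 2164 in mouse 8 and 2974 in mouse 3.

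Among the REV-ERB genes, Nr1d1 (chr11:98767932-98775333, minus strand) ran from 1128 in mouse 1 through a median of 1462 to 2090 in mouse 5. Nr1d2 (chr14:18204054-18239127, minus strand) ran from 3079 in mouse 5 through 3417 to 4321 in mouse 2. Mouse 5 was thus highest for Nr1d1 and lowest for Nr1d2.

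Dbp (chr7:45705088-45710203, plus strand), a PAR bZIP factor and a direct output of the loop, measured 803, 948, 454, 438, 321, 689, 809 and 592 normalised read counts in mice 1 to 8. Its 3 lowest mice, 3, 4 and 5, were the 3 highest for Cry2. Exons of Dbp share 539 bases, 18.0% of its exon length, with Sphk2 on the opposite strand, and those of Nr1d1 share 263 bases, 8.55%, with Thra. Whether counting used strand is not given in the sources used here, so reads in these stretches cannot be assigned. Sphk2 was between 259 and 340 and highest in mice 3 and 5, where Dbp was low, and Thra was between 702 and 982.

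**Figure D1:**
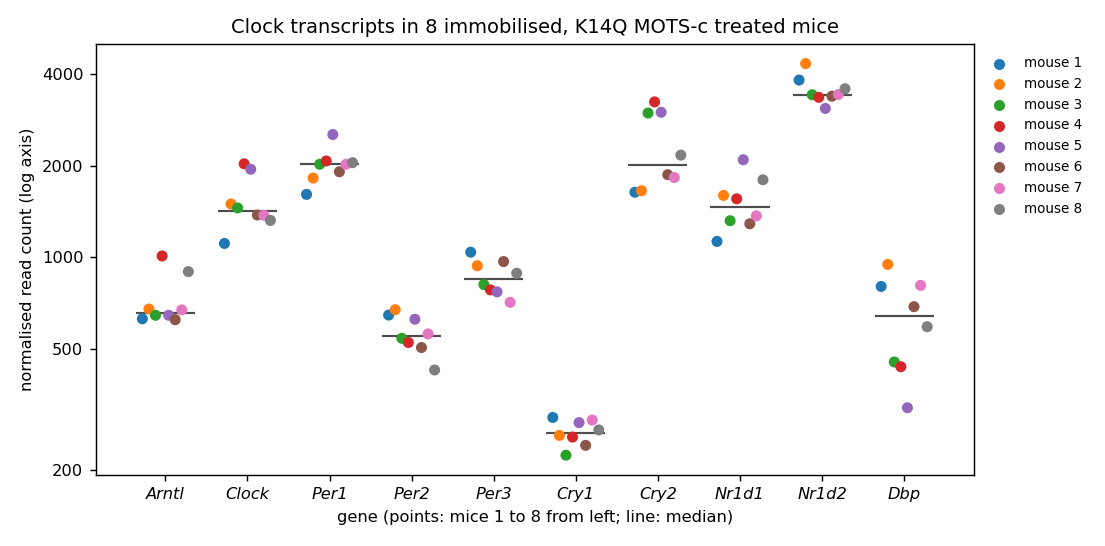
Normalised read count (log axis) of 10 clock genes, with 1 point per mouse, mice 1 to 8 from left to right, and a line at the median. Mice 3, 4 and 5 are high for Cry2 (2974 to 3235) and low for Dbp (321 to 454), and mice 4 and 8 are high for Arntl.

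Per kilobase of exon, Nr1d2 was the most abundant of the 10, at 655 ± 69.6 normalised read counts per kilobase (SD, n = 8). It was followed by Nr1d1 at 493 ± 101, Cry2 at 363 ± 105, Per1 at 356 ± 46.5 and Dbp at 211 ± 72.7. The lower end was formed by Clock at 110.2 ± 22.9, Arntl at 96.4 ± 19.4, Per2 at 96.2 ± 13.96, Per3 at 89.9 ± 11.7 and Cry1 at 79.8 ± 7.72. Neighbours in this order had overlapping ranges in each of the 9 cases, and only Per1 was above its next gene, Dbp, in all 8 mice.

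Between mice, Dbp varied most with the size factors, with a coefficient of variation (CV, SD over mean) of 34.5%, followed by Cry2 at 29.0%. This order reversed with library totals (Dbp 29.0%, Cry2 36.9%) and without mouse 5 (Dbp 28.4%, Cry2 29.7%). Clock, Nr1d1 and Arntl varied by 20.8%, 20.53% and 20.1%, Per2 by 14.5%, Per1 by 13.1%, Per3 by 13.0%, Nr1d2 by 10.6% and Cry1 by 9.67%. Counting error alone would give a CV of 1.70% (Nr1d2) to 6.20% (Cry1), below the CV measured for each gene with the size factors. With library totals the CV of Cry1 was 5.66%, not above that 6.20%. The median CV of the 10 genes was 17.3% against 15.6% for all 15135 genes with at least 10 counts in every mouse, and 5 of the 10 were above that median. The highest mouse exceeded the lowest by a median of 1.60-fold, against 1.58-fold for all these genes. By CV, Dbp stood at percentile 93.5 and Cry2 at percentile 87.8 of all genes. Among genes of similar mean level, 8 of the 10 clock genes were above the median CV, from percentile 57.7 (Per3) to percentile 97.6 (Dbp), and Nr1d2 (31.2) and Cry1 (16.7) were below it.

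The opposing arms were then compared across mice with Arntl as the reference. Each of the other 15134 genes was fitted with limma (log2 of the normalised read count plus 1 against the log2 level of Arntl), with Benjamini-Hochberg adjustment over all of them. No gene passed an adjusted p of 0.05 (0% of genes), and 521 genes had an unadjusted p below 0.05, 1.78% of all genes rising and 1.66% falling with Arntl. This balance depended on the scaling, since 270 rose and 251 fell with the size factors, and 2029 rose and 122 fell with library totals. edgeR's quasi-likelihood test likewise called 0 genes, with 503 at an unadjusted p below 0.05. None of the 9 other clock genes was among those at an unadjusted p below 0.05 by limma.

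Single pairs were compared with an exact permutation test (two-sided, over all pairings of the 8 mice, log2 levels). Of the 45 pairs of clock genes computed, 9 involve Arntl, and 0 of these had an exact p below 0.05. Per2 had the largest r with Arntl in size, r = -0.56 (exact p = 0.18, rho = -0.14 with exact p = 0.75), and r became 0.37 without mice 4 and 8, so this value rests on the 2 mice with the highest Arntl. Nr1d1, whose protein represses Arntl, had r = 0.36 (exact p = 0.38) and rho = 0.67 (exact p = 0.083), with r = 0.37 without those mice. Dbp, whose daily peak lies opposite to that of Arntl in a running clock, had r = -0.25 (exact p = 0.55; rho = -0.12, exact p = 0.79), and 0.29 without mice 4 and 8.

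The remaining relations of Arntl were of either sign. Clock had r = 0.42 (exact p = 0.29) and Cry2 r = 0.43 (exact p = 0.30), and Per1 had r = 0.19 (exact p = 0.57). Without mouse 4, r was -0.12 for Clock and 0.023 for Cry2. For Per3 r was -0.26 (exact p = 0.53), for Nr1d2 -0.09 (exact p = 0.84) and for Cry1 -0.03 (exact p = 0.95). Among all genes ordered by r with Arntl, the 9 lay between percentile 5.78 (Per2) and percentile 85.8 (Cry2). Arntl itself fell with the total count of the library, at r = -0.87 (exact permutation p = 0.0056, adjusted p = 0.025 over 9 such relations; rho = -0.76, exact p = 0.037), and r was -0.90 without the 2 farthest mice. Mouse 4, highest for Arntl, had the lowest total and mouse 8 the next lowest. The part of this in the relations of Arntl was not tested.

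**Figure D2:**
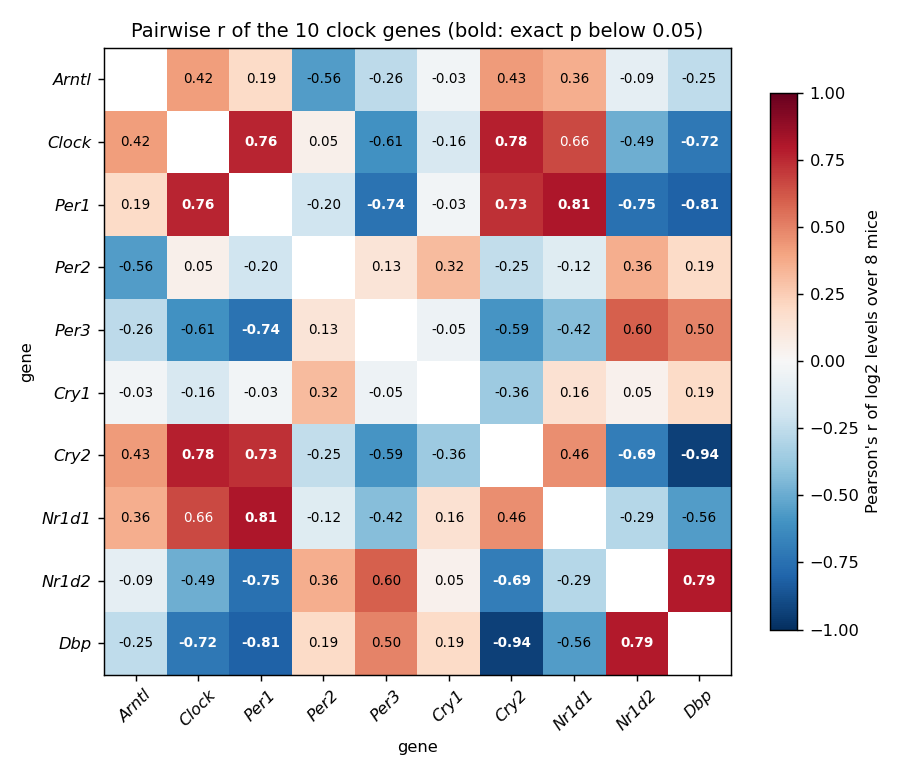
Pearson's r of log2 levels for the 45 pairs of clock genes over 8 mice, from blue (negative) to red (positive), in bold where the exact permutation p is below 0.05. The row of Arntl holds no bold value, whereas 11 pairs without Arntl do, among them Dbp with Cry2 at -0.94. The share of pairs of all genes at that p was not computed.

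With Dbp as the reference, 1 clock gene passed the test over all genes. Cry2 fell with Dbp at a slope of -0.71 ± 0.11 (SE; log2 of Cry2 per log2 of Dbp, adjusted p = 0.023, limma), with r = -0.94 (exact permutation p = 0.0011) and rho = -0.90 (exact p = 0.0046), and r was -0.98 without mice 2 and 5. In the same fit 54 genes rose with Dbp (0.357% of the 15134 tested) and 35 fell (0.231%), and Cry2 was number 31 from the lowest r. With library totals 4 genes rose and 5 fell after adjustment, and at an unadjusted p below 0.05 there were 382 rising and 1230 falling, against 1040 and 1122 with the size factors. The step in Cry2 between mice 3, 4 and 5 and the rest was 50.6% of its range, while the widest step in Dbp was 22.1%. In the 5 other mice, too few for a correlation of their own, the lowest Dbp and the highest Cry2 were both those of mouse 8. The call was lost without mouse 1, 2, 3, 4, 6 or 7 (adjusted p = 0.0531 to 0.0668, limma) and kept without mouse 5 (adjusted p = 0.0198) or mouse 8 (adjusted p = 0.0218). The slope stayed between -0.90 and -0.65 in all 8 of these fits.

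Library composition moved with this pair. The share of counts in the 10 most abundant genes had r = -0.93 with Cry2 (exact permutation p = 0.0014, adjusted p = 0.013 over the 9 relations; rho = -0.93, exact p = 0.0022) and r = -0.92 without the 2 farthest mice. With Dbp it had r = 0.80 (exact permutation p = 0.019, adjusted p = 0.056; rho = 0.83, exact p = 0.015) and r = 0.82 without them. With that share as a second term in the model, a fit chosen after seeing the data, the slope of Cry2 on Dbp was -0.41 with an adjusted p of 0.53, and 0 genes were called by limma, with 1151 at an unadjusted p below 0.05. With library totals as the scaling the slope was -0.86 with an adjusted p of 0.19.

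At an unadjusted p below 0.05, 1 of the 9 other clock genes rose with Dbp (6.87% of all genes did) and 3 fell (7.41% of all genes). Nr1d2 was the gene that rose, with a slope of 0.22 ± 0.09, r = 0.79 (exact permutation p = 0.014), rho = 0.83 (exact p = 0.015) and 0.51 without mice 2 and 5. Its adjusted p of 0.31 over all genes did not pass. Per1, with Cry2 and Clock, was on the falling side, at a slope of -0.28 ± 0.10, r = -0.81 (exact permutation p = 0.0096), rho = -0.86 (exact p = 0.011) and -0.60 without the same mice, and an adjusted p of 0.23. Clock had a slope of -0.39 ± 0.14, r = -0.72 (exact permutation p = 0.049), rho = -0.50 (exact p = 0.22) and -0.76 without these mice, with an adjusted p of 0.23. Mouse 5, lowest for Dbp, was highest for Per1 and second for Cry2 and Clock, and among these 4 genes only the relation to Cry2 passed the adjustment.

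The other 5 genes had no relation to Dbp at an unadjusted p below 0.05. Nr1d1 had r = -0.56 (exact permutation p = 0.15), Per3 r = 0.50 (exact p = 0.20), Arntl r = -0.25 (exact p = 0.55), and Per2 and Cry1 each r = 0.19 (exact p = 0.65 for both). The r of the REV-ERB pair with Dbp lay on opposite sides of 0, with Nr1d1 negative and Nr1d2 positive, although their own r of -0.29 (exact permutation p = 0.50) did not pass. For Nr1d1 the value leaned on mouse 5, since its slope on Dbp was -0.30 in all mice and -0.09 without that mouse. Its rho with Dbp was -0.36 (exact p = 0.39).

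**Figure D3:**
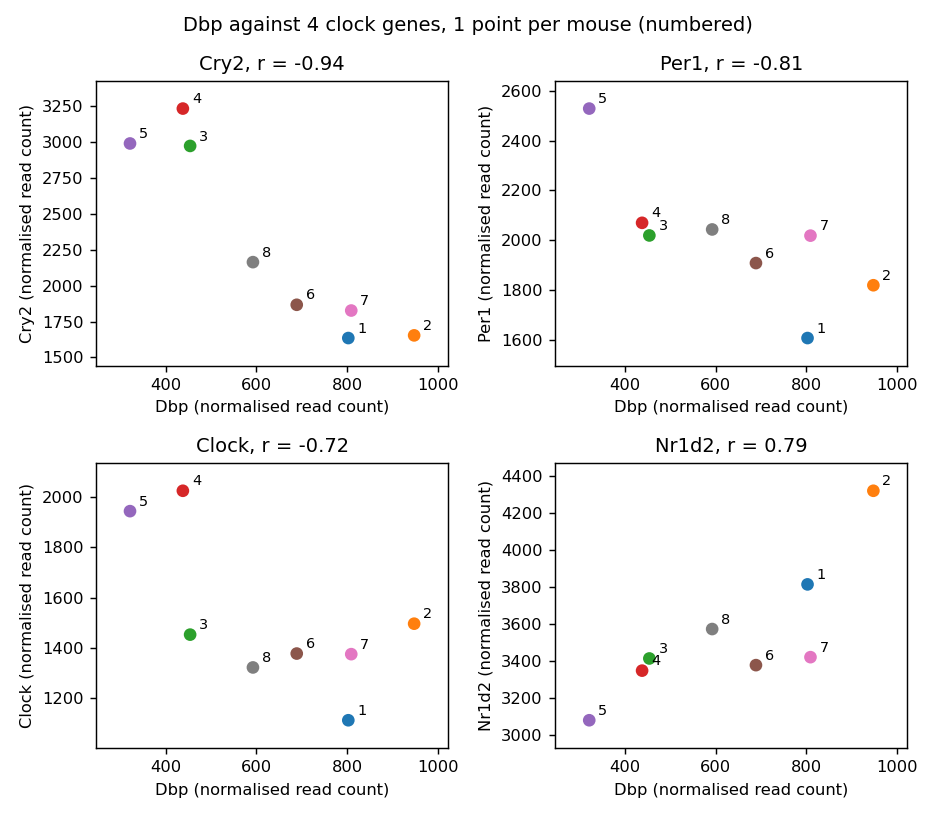
Normalised read counts of Cry2, Per1, Clock and Nr1d2 (vertical axes) against those of Dbp (horizontal axes), with 1 numbered point per mouse. Mice 3, 4 and 5 lie at the left of each panel, with Dbp at 321 to 454, and Cry2 is at 2974 or more in these 3 and at 2164 or less in the rest.

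Across the 45 pairs, r was positive in 21 and negative in 24. An exact permutation p below 0.05 was reached by 5 positive and 6 negative pairs, given here as a description because the pairs share genes and mice. The share of pairs of all genes at that p was not computed, so the count is not read as particular to clock genes. By limma at an unadjusted p below 0.05, 6.87% of all genes rose and 7.41% fell with Dbp. With Arntl the shares were 1.78% and 1.66%. Per1 was in 6 of these 11 pairs, with r of 0.76 with Clock, 0.73 with Cry2, 0.81 with Nr1d1, -0.74 with Per3, -0.75 with Nr1d2 and -0.81 with Dbp. The r of Per1 with Nr1d1 was 0.10 without mice 1 and 5, so it rests on those mice. Clock and Cry2 had r = 0.78 (rho = 0.69, exact permutation p = 0.069), which was 0.37 without mice 4 and 5, and Cry2 and Nr1d2 had r = -0.69, which was -0.54 without the same mice. For Clock and Per1, rho was 0.57 (exact permutation p = 0.15) and r was 0.67 without mice 4 and 5. Per2 and Cry1 were in none of the 11 pairs.

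**Figure D4:**
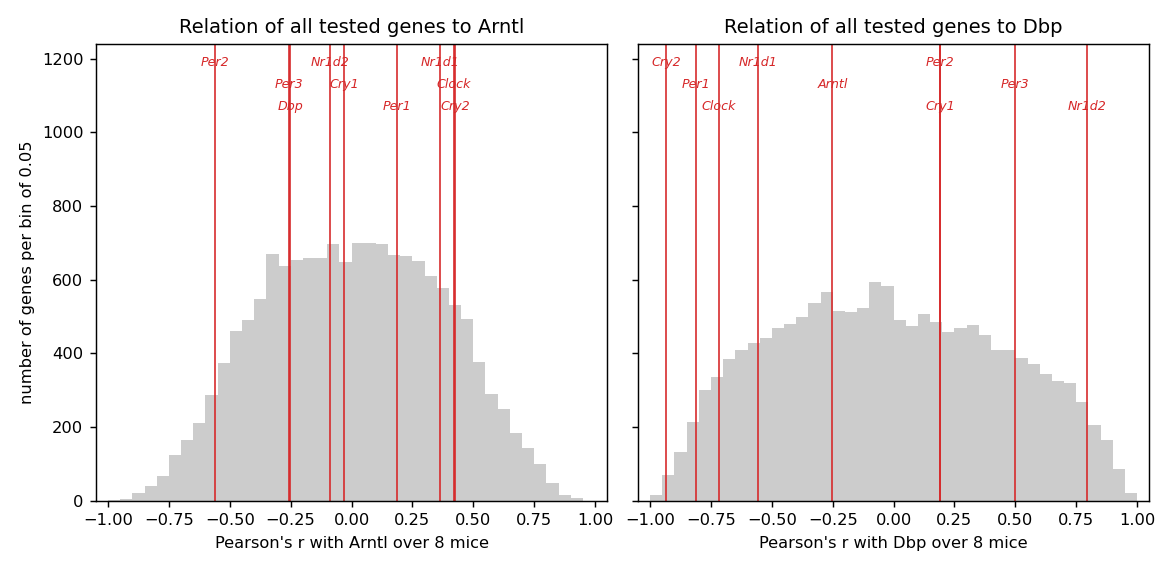
Number of genes in bins of Pearson's r with Arntl (left) and with Dbp (right) over the other 15134 genes tested, with red lines at the 9 other clock genes. The clock genes lie inside the bulk of the left distribution, from -0.56 to 0.43, and reach from -0.94 (Cry2) to 0.79 (Nr1d2) on the right.

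The other genes of the pathway comprised 29 genes in 4 lists, of which 27 had at least 10 counts in every mouse. Rorb and Fbxl21 did not. With Arntl, 0 of the 27 had an unadjusted p below 0.05, by limma, and the median r was -0.03 against 0.01 for all genes. With Dbp, 3 rose (6.87% of all genes did) and 5 fell (7.41% of all genes) at an unadjusted p below 0.05, none passed after adjustment over all genes, and the median r was 0.05 against -0.04.

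Among the activators and nuclear receptors, Rora, which encodes a ROR receptor that activates Arntl, was at 7291 to 11515 normalised read counts and had r = -0.31 with Dbp and 0.23 with Arntl. Npas2, which can replace CLOCK, was low at 10.8 to 23.0 and had r = 0.60 with Arntl (exact permutation p = 0.12).

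Among the 7 PAR bZIP factors and repressors, 1 rose and 1 fell with Dbp at an unadjusted p below 0.05, near the shares of all genes (6.87% and 7.41%). Hlf, a PAR bZIP factor related to Dbp, was at 279 to 598, with its highest value in mouse 2 as for Dbp, and had r = 0.68 (adjusted p = 0.26, limma). Tef, the third PAR bZIP factor, stayed between 6283 and 7439, a CV of 5.78%, with r = 0.40. Cipc, which encodes an inhibitor of CLOCK, was at 1767 to 3220 and had r = -0.91 with Dbp (adjusted p = 0.052, limma). The D-box repressor Nfil3 was at 667 to 1328, highest in mice 7 and 8, and had r = 0.27 with Dbp. Bhlhe40, at 1482 to 2452, and Bhlhe41, at 268 to 1035, encode repressors that compete at E-boxes, and had r of 0.41 and 0.26 with Dbp. Ciart, a repressor of the ARNTL and CLOCK dimer, was at 65.8 to 190, highest in mouse 5, and had r = -0.53.

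In the list of kinases and ubiquitin ligases, Btrc rose and Csnk1d fell with Dbp at an unadjusted p below 0.05. Btrc, a ligase subunit that marks PER proteins for degradation, was at 437 to 576 and had r = 0.96 at a slope of 0.26 ± 0.09 (adjusted p = 0.20, limma). Csnk1d, a kinase of PER proteins, was at 1539 to 1919 and had r = -0.87 (adjusted p = 0.26).

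Of 9 known outputs in muscle, 1 rose and 1 fell with Dbp at an unadjusted p below 0.05, near the 6.87% and 7.41% of all genes. Myod1, a myogenic factor, was at 61.5 to 252 and had r = 0.83 at a slope of 1.04 ± 0.23 (adjusted p = 0.072, limma). Pdk4, a kinase that limits glucose oxidation, was at 62168 to 96382 and had r = -0.80 (adjusted p = 0.34). Neither passed over all genes.

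The genes most like Dbp and Arntl were listed by r among protein-coding genes, as a description of 8 mice. With Dbp, the highest r were those of Gm42742 (0.98), Vat1l (0.98), Ccnh (0.98), Epb41l4b (0.98) and Serpinb9 (0.97), and the lowest those of Slc19a2 (-0.99), Mepce (-0.98), Trmt44 (-0.98), Pi4k2a (-0.98) and Lzts2 (-0.98). Vat1l, Epb41l4b, Slc19a2, Pi4k2a and Lzts2 passed an adjusted p of 0.05 by limma (0.028, 0.014, 0.042, 0.028 and 0.039). Of these 5, Epb41l4b kept its call on leaving out each mouse in turn (adjusted p of at most 0.048, limma) but lost it with library totals (0.069) and with the share of the 10 most abundant genes as a covariate (0.37), which also ended the calls of the other 4, and Slc19a2, Vat1l and Lzts2 lost theirs without any of mice 1 to 7 and Pi4k2a without mice 1, 2, 3, 4, 6 or 7, at adjusted p of up to 0.13. With Arntl, the highest r were those of Nelfa (0.95), Vsig10 (0.94), Ets2 (0.92), Gmeb2 (0.91) and Ptges3 (0.91), and the lowest those of Slc38a6 (-0.94), Kdelr3 (-0.93), Serpinb1a (-0.92), Lmod1 (-0.90) and Alpl (-0.89). All 10 of these had an adjusted p of 0.99. No clock gene was among them.

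Markers of cell types moved with Dbp in part. The summed level of the 5 blood markers ran from 7060 to 28320 normalised read counts, highest in mice 5 and 3, and 3 of the 5 (Hbb-bs, Hbb-bt and Alas2) fell with Dbp at an unadjusted p below 0.05, against 7.41% of all genes. All 8 muscle fibre markers had a positive r with Dbp. Their sum was lowest in mice 3, 4 and 5, from 1742649 to 2510729. At an unadjusted p below 0.05 by limma, 2 of them (Ckm and Pvalb) rose, against 6.87% of all genes. The exact permutation p was 0.031 for Ckm and 0.10 for Pvalb, with rho of 0.60 (exact p = 0.13) and 0.64 (exact p = 0.096). The Schwann cell markers had a sum of 2466 in mouse 5 to 5541 in mouse 7, and Pmp22 rose with Dbp at an unadjusted p below 0.05. Of the 8 macrophage markers (sum 1746 to 4373) Cd68 fell, and of the 8 fibroblast markers (sum 10294 to 19186) Lum rose, at an unadjusted p below 0.05. These 2 lists as a whole did not follow, with a median r of -0.13 and 0.03 against -0.04 for all genes. With Dbp, r was positive for 2 and negative for 6 macrophage markers, and positive for 4 and negative for 4 fibroblast markers. The slow fibre, adipocyte (612 to 2187), endothelial (3431 to 5154) and satellite cell (393 to 632) lists held no such gene for Dbp. With Arntl, 3 of 5 tested adipocyte markers (Plin1, Cfd and Retn) fell at an unadjusted p below 0.05, against 1.66% of all genes, and 0 genes of the other 8 lists were related to it at that p. Without mice 4 and 8 the r of these 3 with Arntl was 0.24, 0.14 and -0.02, so their fall rests on the 2 mice with the highest Arntl. None of these passed after adjustment over all genes, and their part in the relations of the clock genes was not tested.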

How the data were processed

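Poly-adenylated RNA of 8 mice was sequenced. According to the study's methods and the submitters' processing notes, the authors checked and trimmed reads with FastQC and fastp, mapped them with STAR to GRCm38.p6, counted them per gene with summarizeOverlaps and normalised with DESeq2. The annotation release and the use of strand are not given in the sources used here. The authors deposited a signal, namely read counts scaled by the size factor of each mouse (0.906 to 1.20). All nonzero values were whole multiples of 1 step per library (100%, tolerance 0.01 read), and these whole reads gave the depths and count minimums. The counts hold no molecular identifiers, and no 2 libraries were alike within sampling noise.

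Gene symbols, exon lengths and overlaps came from GENCODE M21 (55227 of 55487 genes). Log2 values with a pseudocount of 1 were fitted on Arntl or Dbp with limma (trend) over genes with at least 10 counts in every mouse, at a threshold of 0.05, and pairs of genes were tested by exact permutation. The p-values measure the spread between these mice. Alternative settings comprised scaling by library totals or by TMM factors of edgeR, a pseudocount of 5, no filter, removal of GC content and length trends, edgeR's quasi-likelihood test on the whole reads, Spearman's rho and leaving out each mouse. The share of the 10 most abundant genes as a covariate, and all settings for Dbp with single clock genes, were added after seeing the data. Scripts were tested on simulated data. The clock genes, pathway lists (activators and nuclear receptors, PAR bZIP factors and repressors, kinases and ubiquitin ligases, muscle outputs), marker lists and lists of glucocorticoid responsive, temperature responsive and immediate early genes were chosen with earlier results of these data known. Named were all 10 clock genes, pathway genes at an unadjusted p below 0.05 with further ones given whatever their values, and the 5 highest and 5 lowest r with Arntl and with Dbp among protein-coding genes. A few genes that this rule or the lists cover are not reported here. Promoter windows are RefSeq sequences. R 4.3.3, limma 3.58.1, edgeR 4.0.16, Python 3.11.15, numpy 2.4.6, pandas 2.3.3 and scipy 1.17.1 were used.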

Additional observations from a re-analysis of the deposited data

Results flagged for a closer look

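Among the 10 clock genes and the 27 tested genes of the pathway, a single mouse far from the other 7 was found for 2 genes, measured as the gap to the nearest mouse over the whole range and read against Dixon's critical value for 8 mice. Chance gives about 1 in 20, or 1.85 of 37. Ciart was at 190 normalised read counts in mouse 5 and at 65.8 to 123 in the others, a gap of 0.543 of the range. Hk2, the muscle hexokinase, was at 10061 in mouse 5 and at 6046 to 7886 in the others, a gap of 0.542 of the range. Mouse 5 was also highest for Per1 and Nr1d1 and lowest for Dbp, none of which stood apart by this measure.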

How the results depend on the processing

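Library totals shifted the median of all genes by -0.15 (mouse 7) to 0.19 (mouse 3) on the log2 scale, and TMM factors by -0.04 to -0.01. The 89 genes related to Dbp became 9 with library totals and 0 with the share of the 10 most abundant genes as a covariate, and 23 (without mouse 3) to 299 (without mouse 5) when 1 mouse was left out. The slope of Cry2 on Dbp was then -0.86 with library totals and -0.41 with the covariate, neither with an adjusted p below 0.05 (0.19 and 0.53, limma), and -0.90 to -0.65 without 1 mouse. No gene was related to Arntl after adjustment under any setting run, and 521 genes at an unadjusted p became 2151 with library totals, 1246 without the filter, 783 with GC content and length trends removed, and 316 to 1649 without 1 mouse (1649 without mouse 4). The r of Arntl changed sign for Per3 (0.15 with library totals), Cry1 (0.024 by rho, 0.46 with library totals) and Nr1d2 (0.048 by rho, 0.35 with library totals, 0.094 with the trends removed). Without 1 mouse it ran from -0.12 to 0.66 for Clock, 0.023 (without mouse 4) to 0.59 for Cry2, 0.00061 (without mouse 1) to 0.56 for Per1, 0.22 (without mouse 8) to 0.73 (without mouse 5) for Nr1d1, -0.69 to -0.32 for Per2, -0.41 to -0.061 for Per3, -0.26 to 0.12 for Cry1, -0.25 to 0.11 for Nr1d2 and -0.55 to 0.011 for Dbp, with the change of sign for Clock and Dbp on leaving out mouse 4. Slopes on Dbp changed sign for Per2 (-0.062 with library totals, -0.16 with the covariate, -0.034 to 0.29 without 1 mouse) and Cry1 (-0.11, -0.26 and -0.0040 to 0.20). With library totals the CV of Clock was 26.3%, of Cry1 5.66% and of Cry2 36.9%, and without 1 mouse that of Arntl was 14.05% to 21.3%, of Nr1d2 6.53% (without mouse 2) to 11.5% and of Per1 8.59% (without mouse 5) to 14.1%. The cause of these changes was not tested. No paired analysis was possible because the mice form only 1 group. Depth limited Cry1 most, with 234 counts in its lowest mouse.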

Other observations

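Lists of genes that respond to signals known to reset or accompany the clock were read in the same fits, in which 6.87% of all genes rose and 7.41% fell with Dbp at an unadjusted p below 0.05, and 1.78% rose and 1.66% fell with Arntl. Of 7 tested immediate early genes, Jun rose with Dbp (r = 0.92, adjusted p = 0.072, limma) and Fos, Egr1 and Atf3 fell at an unadjusted p below 0.05. Fos had r = -0.72 (exact permutation p = 0.037) and rho = -0.74 (exact p = 0.046). Egr1 had r = -0.65 (exact permutation p = 0.065) and rho = -0.62 (exact p = 0.11), which did not pass. Atf3, a stress-induced transcription factor, passed over all genes, at a slope of -1.48 ± 0.24 (r = -0.91, adjusted p = 0.027, limma), and lost its call without mouse 1, 2, 3 or 7 (adjusted p up to 0.084), with library totals (0.15) and with the share of the 10 most abundant genes as a covariate (0.55). It measured 58.4, 42.2, 231, 137, 212, 123, 66.2 and 88.7 normalised read counts in mice 1 to 8, so that mice 3, 5 and 4 were highest. Junb rose with Arntl at an unadjusted p below 0.05 (r = 0.64, adjusted p = 0.99, limma), but its exact permutation p was 0.097, rho was 0.43 (exact p = 0.30) and r was 0.05 without mice 4 and 8, on which the value rests.

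Of 7 glucocorticoid responsive genes, Fkbp5 (r = -0.72) and Zbtb16 (r = -0.86) fell and Sgk1 (r = 0.72) rose with Dbp at an unadjusted p below 0.05, with adjusted p of 0.21, 0.13 and 0.24 by limma, against the same 6.87% of all genes rising and 7.41% falling. Tsc22d3, which encodes the glucocorticoid-induced leucine zipper, had r = 0.81 with Arntl (adjusted p = 0.99, limma), but rho was 0.31 (exact permutation p = 0.46) and r was -0.10 without mice 4 and 8, on which the value rests. Of 7 temperature responsive genes, 0 were related to Dbp and Hsp90aa1, an abundant chaperone, rose with Arntl at an unadjusted p below 0.05 (r = 0.85, adjusted p = 0.99, limma), with r = 0.79 without those mice. The summed level of the glucocorticoid list ran from 39730 to 52826, that of the temperature list from 8178 to 12937 and that of the immediate early list from 5789 to 9019 normalised read counts.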
